A study of Mus musculus with 9 samples.

Results

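The genes described here build and serve the cilium: the intraflagellar transport (IFT) proteins, the Bardet-Biedl syndrome (BBS) proteins, the axonemal dyneins, the nephrocystins, and named motors, small GTPases, polycystins and transcription factors. They were chosen by gene symbol (symbols that begin with Ift, Bbs, Dnah, Dnaic or Nphp and a number, and 15 named genes). No measured value is part of that rule, but it was set with earlier results of these data known. The rule found 54 of the 25611 genes in the count table, 49 of which passed a filter on low counts and were tested. RNA was sequenced from hand-picked pancreatic islets of 4-week-old mice, in 3 libraries labelled KO (genotype Pdx1-Cre;Glis3fl/fl) and 4 labelled WT (genotype Glis3fl/fl, without the driver). Both groups carried the floxed allele, and no group carried the Cre driver alone, so effects of the driver and of the deletion cannot be told apart. Pdx1-Cre is active in the pancreatic lineage, and other cells of an islet (vessels, blood cells, stroma) lie outside it. Each library came from a separate mouse, per the design text. Binding of Glis3, a Krüppel-like zinc finger protein, was mapped in islets from Glis3-eGFP mice aged 8 weeks with an antibody against GFP, in 1 list of 21254 peaks without a replicate.

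A cilium is a microtubule-based projection of the cell. IFT trains, pulled outward by kinesin-II and inward by dynein-2, carry its building blocks, and the BBSome adds and removes membrane proteins. Islet cells carry a primary cilium, and its loss in mouse beta cells impairs insulin secretion. Axonemal dyneins are the motors that bend motile cilia. RFX proteins bind a DNA element called the X-box in front of many ciliary genes, and mouse islets that lack Rfx3 have fewer and shorter cilia. Mutations of human GLIS3 cause neonatal diabetes with cystic kidneys, and the protein has been located at the primary cilium of cultured cells.

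Total counts ran from 12099365 to 22578480 in the libraries labelled KO and from 18297697 to 48054551 in WT. Levels are CPM, counts scaled to 1000000 per library after TMM normalisation. No transcript lengths were used, so levels are compared between groups and not between genes. A fold change is labelled KO over WT, with its SE, and a gene passed the test at an adjusted p under 0.05 (edgeR quasi-likelihood test, Benjamini-Hochberg adjustment over 14529 genes). Glis3, the gene to be deleted, had no lower level in labelled KO libraries: it stood at 54.2 ± 3.11 CPM there (SD, n = 3) and at 37.8 ± 6.95 CPM in WT (SD, n = 4), a log2 fold change of 0.52 (SE 0.14, edgeR adjusted p = 0.0257). With the replicate number as a block the adjusted p was 0.0505, and it ran from 0.00948 to 0.117 over the alternatives, the highest without labelled KO 3. It was 0.0501 without labelled KO 1, 0.0945 without WT 3 and 0.085 without WT 4. Counts were summed over all exons, deleted or not, so they do not check the deletion, and the group is called by its label. Beta cell hormone and identity genes marked the tissue as islet, with a summed level of 187821 to 297591 CPM over 6 markers in the libraries labelled KO and of 327132 to 548444 CPM in WT. In bulk islets, fewer cells of a type and less RNA per cell cannot be told apart.

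Of the 49 tested members, 4 rose and 3 fell in the libraries labelled KO, 14.3% in all, against 14.0% of all 14529 tested genes. The background was 8.73% for rises and 5.25% for falls. The members that rose were all axonemal dynein chains: Dnah9, Dnah1, Dnaic1 and Dnaic2. Those that fell were genes of ciliary transport: Ift88, Bbs1 and Bbs9. The other 42 members did not pass. Among those 42, 4 lower and 3 higher ones had an unadjusted edgeR p under 0.05, and DESeq2 called 1 higher and limma-voom none. Over all tested members limma-voom called 3 higher, without Dnah1, and 3 lower. The median log2 fold change of the tested members was −0.10, against 0.007 over all tested genes. The levels of the groups did not overlap in 16 members, 11 lower and 5 higher in the libraries labelled KO, or 32.7% against 26.6% of all tested genes. Of these 16, 3 lower and 2 higher members passed the test. Scaling by library size alone, which moved the median of all genes up by 0.168 on the log2 scale, left none of the 3 falls (3 members were lower at an unadjusted p under 0.05) and made 6 members higher. Without WT 1, 1 member was lower, and 2 were higher without WT 2 or without WT 4.

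**Figure D1:**
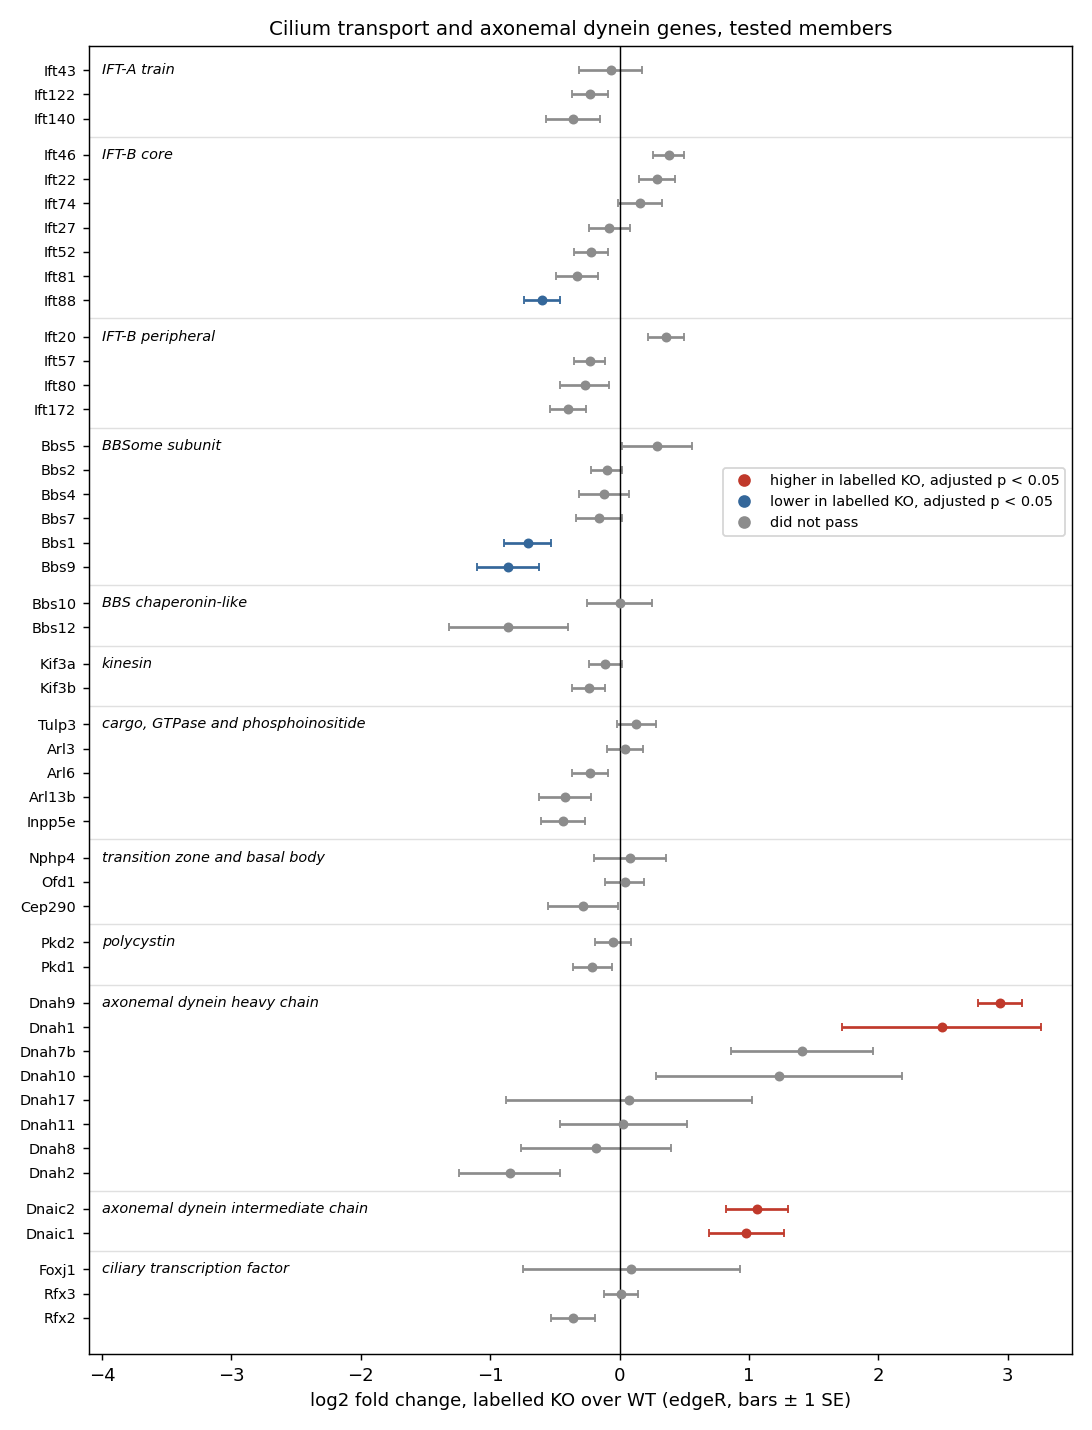
Log2 fold change (labelled KO over WT, x axis) of tested members with bars of ± 1 SE, grouped by role. Red points passed the test as higher, blue points as lower and grey points did not pass: the 4 red points are dynein chains, with Dnah9 at 2.94, and the blue points are Ift88, Bbs1 and Bbs9.

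Promoter sequences of 3 members that rose (Dnah9, Dnaic2 and Dnaic1) and of Bbs1, which fell, are shown because a search for the X-box found a match in each. The other members that passed the test had none of these letters in the window, Dnah1 among them. The windows hold 250 bases before and 50 after the start site, from RefSeq (build GRCm38.p6), and are written 5′ to 3′ along the gene's strand. The pattern searched was GTNNCC, then 0 to 3 free bases, then NGNAAC, on both strands, and capitals mark the match. They lie at chr11:66168502-66168801 (minus strand) for Dnah9, chr11:114727169-114727468 (plus strand) for Dnaic2, chr4:41569544-41569843 (plus strand) for Dnaic1 and chr19:4906578-4906877 (minus strand) for Bbs1.
Dnah9: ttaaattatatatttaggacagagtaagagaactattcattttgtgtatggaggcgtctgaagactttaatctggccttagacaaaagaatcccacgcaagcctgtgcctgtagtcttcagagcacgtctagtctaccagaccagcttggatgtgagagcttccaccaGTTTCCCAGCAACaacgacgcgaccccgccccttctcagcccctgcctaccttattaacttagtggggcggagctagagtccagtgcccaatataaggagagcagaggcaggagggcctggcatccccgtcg
Dnaic2: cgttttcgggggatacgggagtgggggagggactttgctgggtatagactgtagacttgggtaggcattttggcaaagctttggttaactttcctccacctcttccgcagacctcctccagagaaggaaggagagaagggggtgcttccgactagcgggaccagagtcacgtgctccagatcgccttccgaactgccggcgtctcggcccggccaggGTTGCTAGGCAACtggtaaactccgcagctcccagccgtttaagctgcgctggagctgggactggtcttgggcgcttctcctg
Dnaic1: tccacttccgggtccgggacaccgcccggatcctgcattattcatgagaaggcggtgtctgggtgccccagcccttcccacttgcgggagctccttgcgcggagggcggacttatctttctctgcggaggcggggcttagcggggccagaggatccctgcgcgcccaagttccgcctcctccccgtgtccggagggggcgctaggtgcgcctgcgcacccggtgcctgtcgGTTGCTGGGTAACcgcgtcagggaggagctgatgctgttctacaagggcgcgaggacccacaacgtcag
Bbs1: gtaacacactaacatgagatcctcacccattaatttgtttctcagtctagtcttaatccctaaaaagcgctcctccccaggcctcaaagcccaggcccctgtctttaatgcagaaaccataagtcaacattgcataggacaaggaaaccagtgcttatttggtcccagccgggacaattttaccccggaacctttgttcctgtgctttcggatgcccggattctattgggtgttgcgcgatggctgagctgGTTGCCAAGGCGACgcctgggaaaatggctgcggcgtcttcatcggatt
With the start site counted as 0, the match spans −82 to −70 in Dnah9, −33 to −21 in Dnaic2, −19 to −7 in Dnaic1 and 1 to 14 in Bbs1.

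Among the 48 members with a promoter in the RefSeq table, 12 held such a match (25% of genes), against 7.03% of the 11514 tested genes with a promoter. The 48 include Dnah5, Dnah6, Dnah7a, Dnah7c and Kif7, which were below the filter and held no match. Over all 27025 genes with a promoter, tested or not, the share was 5.94%. Per window, the shares were 23.1% of 52 member windows and 5.95% of the 14683 windows of tested genes. The matches are given on the strand that fits the pattern, with the fixed letters in capitals. Those letters are the same in every copy because the pattern requires them, so only the free letters can differ.
Dnah9: GTttCCcaGcAAC
Dnaic1: GTtaCCcaGcAAC
Dnaic2: GTtgCCtaGcAAC
Dnah17: GTcaCCagcGcAAC
Ift74: GTatCCtaGcAAC
Ift22, upstream copy: GTagCCcagGaAAC
Ift22, downstream copy: GTcgCCgtgGaAAC
Ift57, upstream copy: GTcaCCacgGcAAC
Ift57, downstream copy: GTtgCCtgGtAAC
Bbs1: GTcgCCttgGcAAC
Bbs4: GTcgCCcggGaAAC
Bbs7: GTtgCCttgGaAAC
Nphp4: GTctCCtagGtAAC
Rfx2: GTtgCCgggcGcAAC
The Dnah9 and Dnaic1 copies have the same free letters after the fixed CC, and so do the Dnaic2 and Ift74 copies. Ift22 and Ift57, both of the IFT-B train, each carried a pair of matches. Of the 12 genes with a match, 3 rose (Dnah9, Dnaic1 and Dnaic2), 1 fell (Bbs1) and 8 did not pass. For comparison, 8.73% of all tested genes rose and 5.25% fell. Calls among all tested genes with a match were not counted, so a link between match and call was not tested. A second pattern, the letters TGGGGGGT described for GLIS proteins, was searched on both strands and was in none of the member windows, and in 1.48% of the windows of tested genes. A match is a run of letters and not a measured binding site.

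Dnah9 encodes a heavy chain of the outer dynein arm, the main force generator of the motile axoneme. Its levels were 107, 103 and 80.7 CPM in the libraries labelled KO 1 to 3, against 12.1, 16.8, 11 and 10.2 CPM in WT 1 to 4. Every labelled KO library stood far above every WT library. The mean was 96.9 ± 14.1 CPM in labelled KO (SD, n = 3) and 12.5 ± 2.94 CPM in WT (SD, n = 4), a 7.65-fold difference (log2 2.94, SE 0.17, edgeR adjusted p = 2.08e-07). The call held in all 16 alternatives, with adjusted p up to 5.12e-06. Dnah9 (Entrez 237806, chromosome 11, 65831324 to 66168551, minus strand, mm10) made up 87 ± 3.8% of all heavy chain counts in labelled KO (SD, n = 3) and 51.1 ± 5.41% in WT (SD, n = 4). The other 11 heavy chains together had 10.1, 19.3 and 13.7 CPM in labelled KO, against 14.4, 13.9, 8.4 and 11.4 CPM in WT, and these ranges overlapped.

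The dynein intermediate chains, which hold the outer arm together and dock it to the microtubule, both passed the test. Dnaic2 stood at 7.35, 9.2 and 9.83 CPM in labelled KO 1 to 3, against 4.81, 3.83, 3.71 and 4.5 CPM in WT 1 to 4. The groups did not overlap, and the difference was 2.09-fold (log2 1.06, SE 0.24, edgeR adjusted p = 0.00872; 0.000332 to 0.0464 over the alternatives). Dnaic1 stood at 15.5, 15.7 and 10 CPM in labelled KO 1 to 3, against 4.77, 5.17, 11.3 and 6.84 CPM in WT 1 to 4. Here WT 3 lay above labelled KO 3, so the groups overlapped. The log2 fold change was 0.98 (SE 0.29, edgeR adjusted p = 0.0378), and with the replicate block it was 1.06 (edgeR adjusted p = 0.0538). Dnaic1 lost its call without WT 1 (0.09), WT 2 (0.109), WT 4 (0.0788), labelled KO 1 (0.111) or labelled KO 2 (0.117), with edgeR adjusted p from 0.00642 to 0.117 over the alternatives. Its span overlaps Enho on the other strand, which had 9301 counts in labelled KO and 19714 in WT, against 798 and 731 for Dnaic1. These are unscaled sums over 3 labelled KO and 4 WT libraries of unequal depth. They compare the 2 genes within a group and not the groups. The strand setting of the counting is not given in the labels or headers, so reads of the 2 genes may not be separated where they overlap. The same holds for Dnah17, with 27 counts in labelled KO and 41 in WT, again unscaled sums. It overlaps Pgs1 on the other strand, which had 1247 and 2173. Further members that overlap a gene on the other strand include Cep290, Dnah11, Ift140 and Nphp4.

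The other outer arm heavy chains were low. Dnah5, the other main heavy chain of the outer arm, had 2 counts in labelled KO 1 and none in the remaining 6 libraries. Dnah11, an outer arm chain of airway cilia, stood at 0.965 to 6.48 CPM in labelled KO and 2.37 to 4.65 CPM in WT. Dnah8 and Dnah17, the outer arm chains known from sperm, had 0.594 to 1.77 and 0 to 0.648 CPM in labelled KO, against 0.856 to 2.2 and 0.194 to 0.609 CPM in WT. None of these 4 separated the groups: Dnah11, Dnah8 and Dnah17 were tested and did not pass, and Dnah5 was below the filter. A count of 0 allows up to 3 counts, which is 0.13 to 0.223 CPM in a labelled KO library and 0.0584 to 0.183 CPM in a WT library (counting error only).

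Among the inner arm heavy chains, Dnah1 passed the test on few counts. It stood at 0.52, 3.76 and 2.13 CPM in labelled KO 1 to 3, against 0.766, 0.35, 0.0609 and 0.287 CPM in WT 1 to 4, or 7, 87 and 48 counts against 22, 18, 1 and 6. Labelled KO 1 lay below WT 1, so the groups overlapped. The log2 fold change was 2.49 (SE 0.77, edgeR adjusted p = 0.0469), and with the replicate block the edgeR adjusted p was 0.171. The call was lost without WT 2 (0.11), WT 3 (0.0961), WT 4 (0.106), labelled KO 2 (0.213) or labelled KO 3 (0.105), and also with limma-voom (0.0737) and without robust shrinkage (0.0546). Over all alternatives the adjusted p ran from 0.0119 to 0.213. Dnah2 and Dnah10, which form the inner arm f dynein, did not pass, with 1.34 to 3.59 and 0.487 to 1.04 CPM in labelled KO, against 3.17 to 6.15 and 0 to 0.861 CPM in WT. Dnah7b stood at 1.17 to 5.12 CPM in labelled KO and 0.852 to 1.15 CPM in WT, without overlap, and did not pass. Dnah7a, Dnah7b and Dnah7c are close copies between which reads may have been split. Dnah7a (0, 33 and 13 counts in labelled KO; 3, 18, 0 and 0 in WT) and Dnah7c (8, 0 and 0 counts in labelled KO; 5, 11, 2 and 2 in WT) were below the filter. Dnah6 had 1 count in labelled KO 3 and 1 in WT 3.

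**Figure D2:**
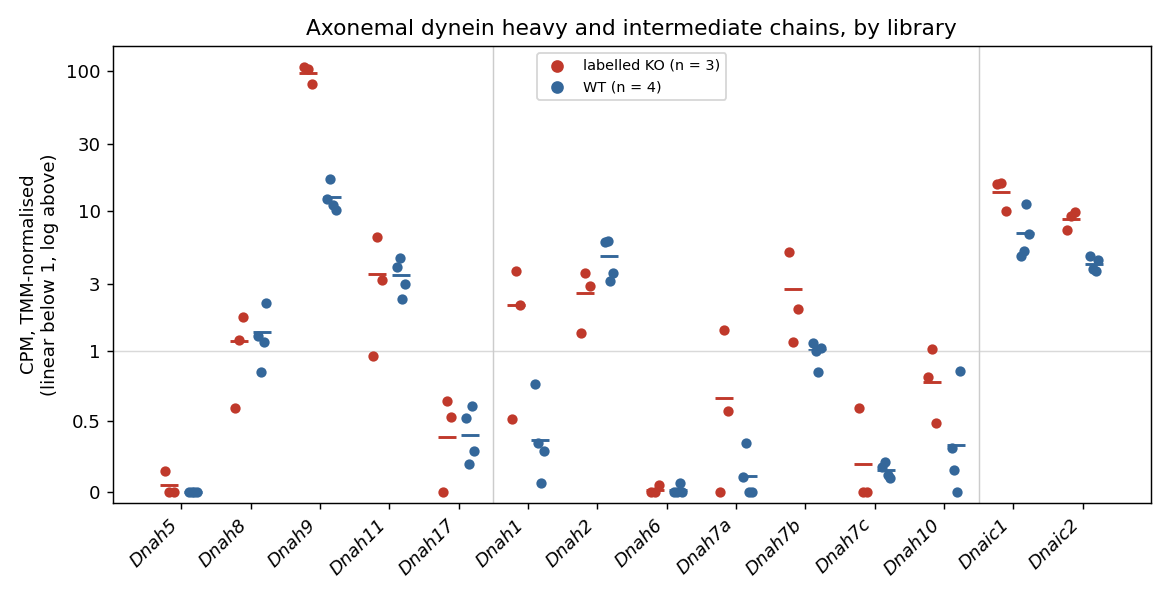
CPM (y axis, linear below 1 and logarithmic above) of the 12 dynein heavy chains and 2 intermediate chains in each library. Red points are labelled KO (n = 3), blue points are WT (n = 4), short bars are means, and vertical lines divide outer arm heavy, inner arm heavy and intermediate chains: Dnah9 alone is above 80 CPM in labelled KO, and the other heavy chains lie below 7 CPM.

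The IFT-B train, which binds kinesin-II and moves toward the tip, had 1 of 11 members lower, against 5.25% of all tested genes. Ift88, the core subunit whose loss removes cilia in mice, stood at 18.9, 17.1 and 19.4 CPM in labelled KO 1 to 3, against 29, 30.5, 23.9 and 28 CPM in WT 1 to 4. All labelled KO libraries were below all WT libraries, by 1.51-fold (log2 −0.60, SE 0.14, edgeR adjusted p = 0.0121; 0.00141 to 0.16 over the alternatives). The call was lost with scaling by library size alone, where the log2 value was −0.44. Ift46, another core subunit, stood at 47.6, 57.8 and 48.1 CPM in labelled KO, against 38.9, 34.6, 42.4 and 42 CPM in WT. The groups did not overlap, and the log2 value of 0.38 (SE 0.12) missed the threshold (edgeR adjusted p = 0.059; 0.02 to 0.191 over the alternatives). It passed with DESeq2 (0.0462) and with scaling by library size alone (0.02).

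The other core subunits showed small differences. Ift22, a small GTPase, stood at 21.7 to 24.2 CPM in labelled KO and 17.2 to 20.4 CPM in WT, and Ift52 at 29.5 to 32 CPM and 32.1 to 40.5 CPM, each without overlap and without passing. Ift81 and Ift74, which together bind tubulin, stood at 32.9 to 43.7 and 25.3 to 33 CPM in labelled KO, against 38.5 to 62 and 18.3 to 29.4 CPM in WT. Ift27, a GTPase that links the train to the BBSome, stood at 16.4 to 20.8 CPM in labelled KO and 17.6 to 22.8 CPM in WT. The summed level of the 7 core members was 209 ± 4.94 CPM in labelled KO (SD, n = 3) and 216 ± 11.6 CPM in WT (SD, n = 4), within the spread of the libraries.

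Peripheral IFT-B members did not pass. Ift172, the largest of them, stood at 18.9, 17.2 and 19.1 CPM in labelled KO, against 21.3, 26.8, 24.4 and 24.7 CPM in WT. Its groups did not overlap, with a log2 value of −0.40 (SE 0.14, edgeR adjusted p = 0.0792; 0.0515 to 0.489 over the alternatives). Ift20, which also serves transport from the Golgi, stood at 69.7 to 88.9 CPM in labelled KO and 49.5 to 73 CPM in WT (log2 0.36, SE 0.14, edgeR adjusted p = 0.112; 0.0173 to 0.28 over the alternatives). With the replicate block its edgeR adjusted p was 0.0401. Ift57 and Ift80 stood at 54.9 to 64 and 19.3 to 36.9 CPM in labelled KO, against 59.1 to 77 and 33.4 to 40.8 CPM in WT, and labelled KO 1 was the lowest library for both.

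In the IFT-A train, which returns from the tip and admits membrane proteins, 2 of 3 members had no overlap, and none passed. Of all tested genes, 26.6% had no overlap. Ift122 stood at 21.9 to 27.5 CPM in labelled KO and 28.2 to 32.6 CPM in WT, and Ift140 at 6.65 to 10.8 CPM and 11.1 to 13.4 CPM. Ift43 stood at 5.45 to 7.8 CPM in labelled KO and 5.72 to 7.37 CPM in WT. None of the 3 reached an unadjusted edgeR p under 0.05, and none was called by DESeq2 or limma-voom. Of the kinesins, Kif3a, a motor subunit of kinesin-II, stood at 32.6, 44.1 and 40.5 CPM in labelled KO, against 42.3, 38.5, 41 and 47.7 CPM in WT (log2 −0.11, SE 0.13, edgeR adjusted p = 0.632). Its partner Kif3b stood at 26 to 33.3 CPM in labelled KO and 32 to 38.9 CPM in WT. Kif7, the Hedgehog regulator at the ciliary tip, was below the filter, with 0, 0 and 7 counts in labelled KO, against 16, 15, 3 and 9 in WT.

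The BBSome is a coat that carries receptors out of the cilium, and 2 of its 6 members fell, against 5.25% of all tested genes. Bbs1 stood at 11.2, 8.34 and 10.9 CPM in labelled KO 1 to 3, against 19.1, 14.2, 16.8 and 16.2 CPM in WT 1 to 4, 1.64-fold lower without overlap (log2 −0.71, SE 0.18, edgeR adjusted p = 0.0185). Bbs9 stood at 4.08, 7.78 and 7.97 CPM in labelled KO, against 12.1, 13.1, 12.8 and 10.6 CPM in WT, 1.82-fold lower without overlap (log2 −0.86, SE 0.24, edgeR adjusted p = 0.0282). Labelled KO 1 was the lowest library for Bbs9, and the log2 value without it was −0.63. Bbs1 lost its call without WT 1 (0.0605) or labelled KO 2 (0.0617) and with scaling by library size alone (0.121), with edgeR adjusted p from 0.00344 to 0.121 over the alternatives. Bbs9 lost it without WT 1 (0.0553), WT 2 (0.0811), WT 3 (0.0661) or labelled KO 1 (0.0625) and with scaling by library size alone (0.0907), with a range of 0.00613 to 0.0907.

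The remaining BBSome members did not pass. Bbs4 stood at 11.9, 19.7 and 19.2 CPM in labelled KO, against 19.8, 18.2, 15.6 and 20.4 CPM in WT (log2 −0.12, SE 0.19, edgeR adjusted p = 0.728). Bbs2 and Bbs7, subunits of the BBSome core, stood at 29.9 to 36 and 11.3 to 14.3 CPM in labelled KO, against 34.2 to 38 and 12.5 to 17.5 CPM in WT. Bbs5 stood at 6.11 to 7.39 CPM in labelled KO and 3.9 to 6.83 CPM in WT. Summed over the 6 members, the level was 86.9 ± 2.89 CPM in labelled KO (SD, n = 3) and 103 ± 6.84 CPM in WT (SD, n = 4). Ttc8, a further BBSome subunit outside the symbol rule, also fell, with 19.4, 14.5 and 26.1 CPM in labelled KO, against 28.7, 29.7, 35.7 and 33.3 CPM in WT (log2 −0.67, SE 0.18, edgeR adjusted p = 0.027; 0.00564 to 0.0923 over the alternatives). It lost the call without WT 3 (0.0748), WT 4 (0.0579), labelled KO 1 (0.0745) or labelled KO 2 (0.0853), and with scaling by library size alone (0.0923). Bbip1, another BBSome subunit outside the rule, stood at 33.5 to 41.9 CPM in labelled KO and 28.6 to 44.7 CPM in WT. Bbip1 did not pass (log2 0.04, SE 0.15, edgeR adjusted p = 0.886). The chaperonin-like genes Bbs10 and Bbs12, which help the BBSome assemble, stood at 4.53 to 8.12 and 0.648 to 3.5 CPM in labelled KO, against 5.85 to 7.59 and 3.84 to 4.55 CPM in WT, and did not pass.

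**Figure D3:**
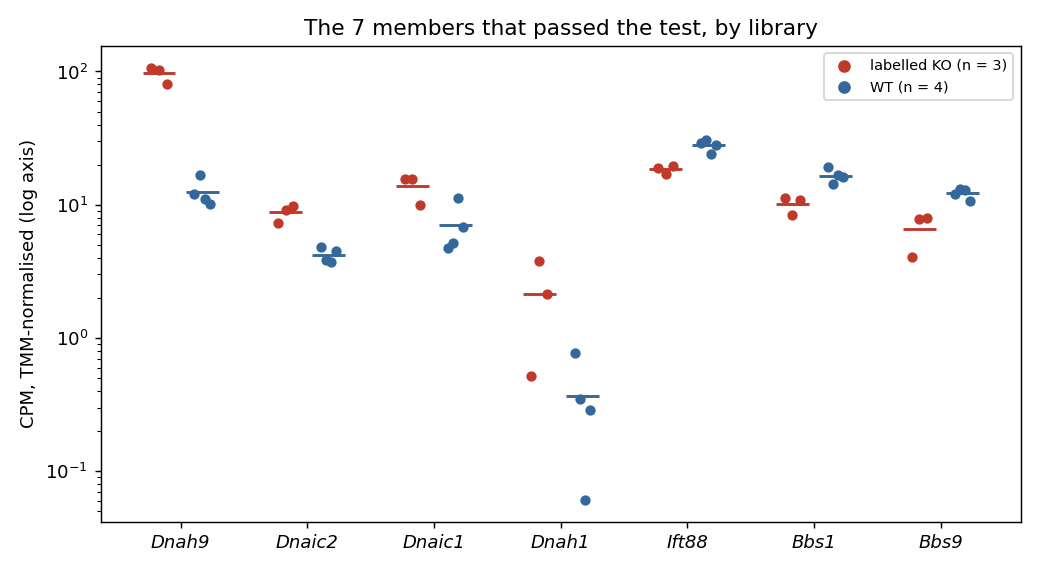
CPM (logarithmic y axis) of the 7 members that passed the test, by library. Red points are labelled KO (n = 3), blue points are WT (n = 4) and short bars are means: the groups of Dnaic1 and Dnah1 overlap and those of the other 5 genes do not.

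Cargo regulators did not pass. Inpp5e, the ciliary phosphoinositide phosphatase, stood at 18.8, 14.5 and 15.7 CPM in labelled KO, against 26.5, 21.1, 19.3 and 21.2 CPM in WT, without overlap (log2 −0.44, SE 0.17, edgeR adjusted p = 0.0998; 0.069 to 0.477 over the alternatives). Arl13b, the GTPase that marks the ciliary membrane, stood at 10.6, 7.04 and 7.57 CPM in labelled KO, against 11.7, 11.8, 10.9 and 10.3 CPM in WT (log2 −0.42, SE 0.20, edgeR adjusted p = 0.204). Arl6, which recruits the BBSome, stood at 15.9 to 19.5 CPM in labelled KO and 19.8 to 21.7 CPM in WT, without overlap. Arl3, which releases lipid-anchored cargo, stood at 64.6 to 68.1 CPM in labelled KO and 54.3 to 76.5 CPM in WT, and Tulp3, the adaptor that brings receptors to IFT-A, at 23.8 to 35.7 CPM and 26 to 31.8 CPM. Inpp5e overlaps Pmpca on the other strand.

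At the transition zone and basal body, the groups overlapped for Cep290, Nphp4 and Ofd1. Cep290, a scaffold of the transition zone, stood at 5.87, 4.84 and 4.92 CPM in labelled KO, against 7, 7.08, 7 and 4.02 CPM in WT (log2 −0.28, SE 0.27, edgeR adjusted p = 0.562). Nphp4, a nephrocystin gene, stood at 4.65 to 7.69 CPM in labelled KO and 4.81 to 8.21 CPM in WT. Ofd1, a centriole protein gene on the X chromosome, stood at 19 to 21.9 CPM in labelled KO and 17.2 to 22.8 CPM in WT. The polycystins, membrane proteins of the cilium whose loss causes cystic kidneys and pancreatic cysts, did not pass either. Pkd1 stood at 53.2, 62.3 and 53.6 CPM in labelled KO, against 65.9, 82.8, 60.3 and 50.9 CPM in WT (log2 −0.21, SE 0.15, edgeR adjusted p = 0.416), and its span overlaps Tsc2 on the other strand. Pkd2 stood at 38.1, 28.8 and 40.8 CPM in labelled KO, against 41.2, 38.6, 33.6 and 35.5 CPM in WT (log2 −0.05, SE 0.14, edgeR adjusted p = 0.849).

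Of the transcription factors of ciliary genes, none passed edgeR (1 lower at an unadjusted p under 0.05), DESeq2 or limma-voom. Rfx3 stood at 30.5, 25.8 and 27.5 CPM in labelled KO 1 to 3, against 28.7, 26.5, 27.1 and 28.4 CPM in WT 1 to 4. The difference was within the spread of the libraries (log2 0.01, SE 0.13, edgeR adjusted p = 0.972). Rfx3 lies next to the targeted gene, 248 kb from it on chromosome 19. Foxj1, the main activator of motile ciliary genes, was near the detection limit, with 0.743, 0.389 and 0.797 CPM in labelled KO, against 0.383, 0.817, 0.0609 and 1.1 CPM in WT (log2 0.09, SE 0.84, edgeR adjusted p = 0.962). Rfx2 stood at 19 to 20.3 CPM in labelled KO and 20.6 to 31.6 CPM in WT, without overlap and without passing. Rfx6, an islet factor outside the symbol rule, rose to 157, 147 and 143 CPM in labelled KO, against 95.1, 117, 122 and 102 CPM in WT (log2 0.45, SE 0.12, edgeR adjusted p = 0.0243; 0.00383 to 0.0847 over the alternatives). Its call was lost without WT 1 (0.0599), WT 4 (0.069), labelled KO 1 (0.0847) or labelled KO 3 (0.0612).

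Further cilium genes were counted in 6 lists, 130 genes of which 106 were tested. Of these, 5 rose and 4 fell, or 8.49% in all, against the 14.0% of all tested genes, with a median log2 fold change of −0.04. In the motile axoneme and assembly list 1 of 23 tested genes rose and 1 fell. Tmem212, a membrane protein gene known as a marker of multiciliated cells, rose to 8.39, 6.61 and 6.33 CPM in labelled KO, against 0.279, 0.311, 0.122 and 0.144 CPM in WT (log2 4.91, SE 0.42, edgeR adjusted p = 4.04e-06). Spag1, a cytoplasmic factor of dynein arm assembly, fell to 3.79, 1.64 and 3.23 CPM in labelled KO, against 6.83, 6.07, 8.04 and 5.22 CPM in WT (log2 −1.19, SE 0.33, edgeR adjusted p = 0.028; 0.00398 to 0.0781 over the alternatives). Spag1 lost its call without WT 1 (0.0643), WT 2 (0.0609), WT 3 (0.0781) or labelled KO 2 (0.0704), and with scaling by library size alone (0.0647). The other 21 genes, among them the dynein assembly factor Zmynd10 and the radial spoke genes Rsph1, Rsph4a and Rsph9, did not pass.

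In the transition zone list 2 of 21 tested genes rose and 1 fell. Anks6, a partner of the nephrocystins, fell to 8.24, 10.9 and 8.37 CPM in labelled KO, against 19.7, 19.8, 22.2 and 18.2 CPM in WT (log2 −1.12, SE 0.17, edgeR adjusted p = 6.41e-04). Ahi1, the Joubert syndrome gene, rose to 54.4, 51.6 and 48.6 CPM in labelled KO, against 32.1, 38.4, 27.9 and 28 CPM in WT (log2 0.70, SE 0.13, edgeR adjusted p = 0.00316). Anks6 and Ahi1 kept their calls in all 16 alternatives. B9d1, a transition zone subunit, rose to 36.2, 23.2 and 27.7 CPM in labelled KO, against 16.9, 14.4, 20.3 and 23.8 CPM in WT, with overlap between the groups (log2 0.63, SE 0.19, edgeR adjusted p = 0.0479) and lost the call without any 1 of WT 1 to 3, labelled KO 1 or labelled KO 3 (0.0828 to 0.193), and without robust shrinkage (0.0568; 0.0061 to 0.193 over the alternatives).

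Of the membrane and Hedgehog list, 18 genes were tested, 1 rose and 1 fell. Rp2, the GTPase activator for Arl3, fell to 12.6, 14 and 18.6 CPM in labelled KO, against 30.4, 27, 20.9 and 21.3 CPM in WT (log2 −0.72, SE 0.19, edgeR adjusted p = 0.0206; 0.0045 to 0.102 over the alternatives), a call lost without WT 1, WT 2, labelled KO 1 or labelled KO 2 (0.0608 to 0.0743) and with scaling by library size alone (0.102). Rab23, a GTPase of Hedgehog signalling, rose to 28.8, 27 and 21.7 CPM in labelled KO, against 16.5, 15.5, 20.9 and 15.5 CPM in WT (log2 0.60, SE 0.16, edgeR adjusted p = 0.0262), with an edgeR adjusted p of 0.0749 under the replicate block and of 0.059 to 0.0894 without WT 1, WT 2, WT 4, labelled KO 1 or labelled KO 2 (0.00968 to 0.0894 over the alternatives). Of 22 tested genes of further transport, Ttc8 was the call, and of 8 tested transcription factors Rfx6 was. The 14 basal body genes did not pass edgeR, with 2 lower and 1 higher at an unadjusted p under 0.05, and DESeq2 and limma-voom each called 1 higher.

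Multiciliated cells are a known site of axonemal dyneins. Of 11 multiciliated cell markers 5 were tested, and 1 of them, Tmem212, rose. The other 4 tested markers did not pass and overlapped between the groups: Cfap126 stood at 23.3 to 25.6 CPM in labelled KO and 18.7 to 37.7 CPM in WT, Tppp3 at 18.1 to 19.6 and 10.5 to 19.8 CPM, Dynlrb2 at 2 to 3.2 and 1.93 to 3.16 CPM, and Foxj1 at 0.389 to 0.797 and 0.0609 to 1.1 CPM. The remaining 6 were below the filter, and 3 of them, Mcidas, Gmnc and Ccdc153, had no count in any of the 7 libraries. The summed level of the list was 52 to 55.5 CPM in labelled KO and 32.2 to 62.1 CPM in WT. Duct cells also carry cilia, and 2 of 7 tested duct markers rose, Spp1 and Anxa2, while 8.73% of all tested genes rose. The duct markers had summed levels of 806 to 987 CPM in labelled KO and 273 to 331 CPM in WT. Most of that rise was Spp1, at 654, 447 and 694 CPM in labelled KO, against 38.7, 17.2, 28.8 and 37.4 CPM in WT (log2 4.29, SE 0.27, edgeR adjusted p = 1.79e-06). The duct keratin Krt19 stood at 18.1, 0 and 1.46 CPM in labelled KO, against 1.46, 0.603, 1.77 and 2.01 CPM in WT, so 2 of the 3 labelled KO libraries were within or below the WT range. Their part in the rise of the dyneins was not tested.

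Of 12 tested acinar markers none passed edgeR (0 at an unadjusted p under 0.05, and 0 by DESeq2 and limma-voom), but 11 were higher with the replicate block, with summed levels of 2439 to 13383 CPM in labelled KO and 747 to 4830 CPM in WT. Immune markers summed to 156 to 166 CPM in labelled KO and 83.1 to 111 CPM in WT (1 of 6 higher). Most of that sum was C1qa, the marker that passed, at 134 to 136 CPM in labelled KO and 70.1 to 94.5 CPM in WT. Stromal markers summed to 211 to 314 and 166 to 230 CPM (1 of 6 higher, and 3 with the block). Endothelial markers summed to 545 to 700 CPM in labelled KO and 501 to 557 CPM in WT, and proliferation markers to 39.2 to 61.8 and 27.8 to 76.4 CPM. Neither of these lists held a call by edgeR, DESeq2 or limma-voom or an unadjusted edgeR p under 0.05. Over all tested genes, 8.73% rose and 5.25% fell. Among the 6 beta cell markers 4 fell and 1 rose, among the 6 alpha cell markers 3 fell and 1 rose (1 each way with the block), and among the 4 delta cell markers 1 rose (and 1 fell with the block). Whether these shifts bear on the ciliary genes was not tested.

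Glis3 peaks lay at the 5′ end of most members, as of most genes. A peak midpoint was within 1 kb of the 5′ end in 37 of 49 tested members (75.5%), against 71.2% of all tested genes, within 10 kb in 40 (81.6% against 80.5%) and within 50 kb in 43 (87.8% against 91.1%). A peak overlapped the gene span in 35 members (71.4% against 67.3%). These shares stand near those of all tested genes. All 14 IFT genes had a peak within 1 kb, while 1 of 8 tested dynein heavy chains did, and that was Dnah9. Dnah6, a heavy chain below the filter on low counts, also had a peak there, with its midpoint at −24 bases.

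**Figure D4:**
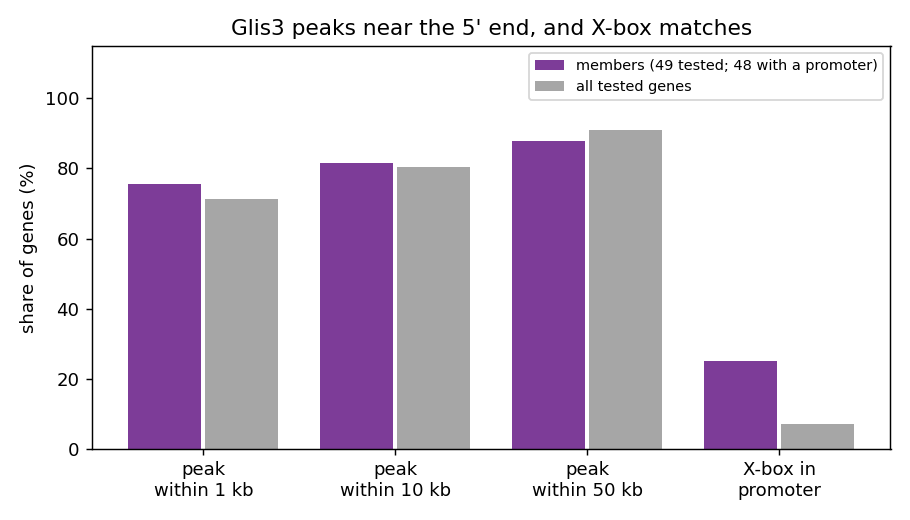
Share of genes (y axis, %) with a Glis3 peak midpoint within 1, 10 or 50 kb of the 5′ end, and with an X-box match in the RefSeq promoter, for the members (purple) and all tested genes (grey). The peak shares lie side by side (75.5% and 71.2% within 1 kb), and the X-box shares are 25% and 7.03%. Members below the filter are left out of the peak shares but are part of the X-box share.

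Dnah9 carried 4 peaks within its span, at 0.221, 95.3, 143 and 325 kb from the 5′ end. The one at the start, at chr11:66168231-66168430, lies downstream of the promoter window printed above and does not overlap its X-box. Dnaic2 carried peaks at −0.134 and −2.39 kb (minus signs mark positions upstream of the 5′ end) and at 13.3 and 22 kb. The nearest (chr11:114727179-114727378) lies inside the printed window and ends before the X-box. Dnaic1 had a peak at −0.409 kb and 5 within the gene, at 8.45 to 58.6 kb. Of the falling members, Ift88 had peaks at 0.143 and 5.53 kb and Bbs9 at −0.149 and −7.91 kb, while the nearest to Bbs1 lay at −21771 bases. Dnah1, with its nearest peak at −12824 bases, also had none within 10 kb. Rfx3, which did not pass the test, had peaks at −0.367, 0.63, 22.3 and 106 kb. Of the 14 X-box matches, those of Ift22, Ift57 and Ift74 lay inside a peak, and these 3 genes did not pass the test.

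**Figure D5:**
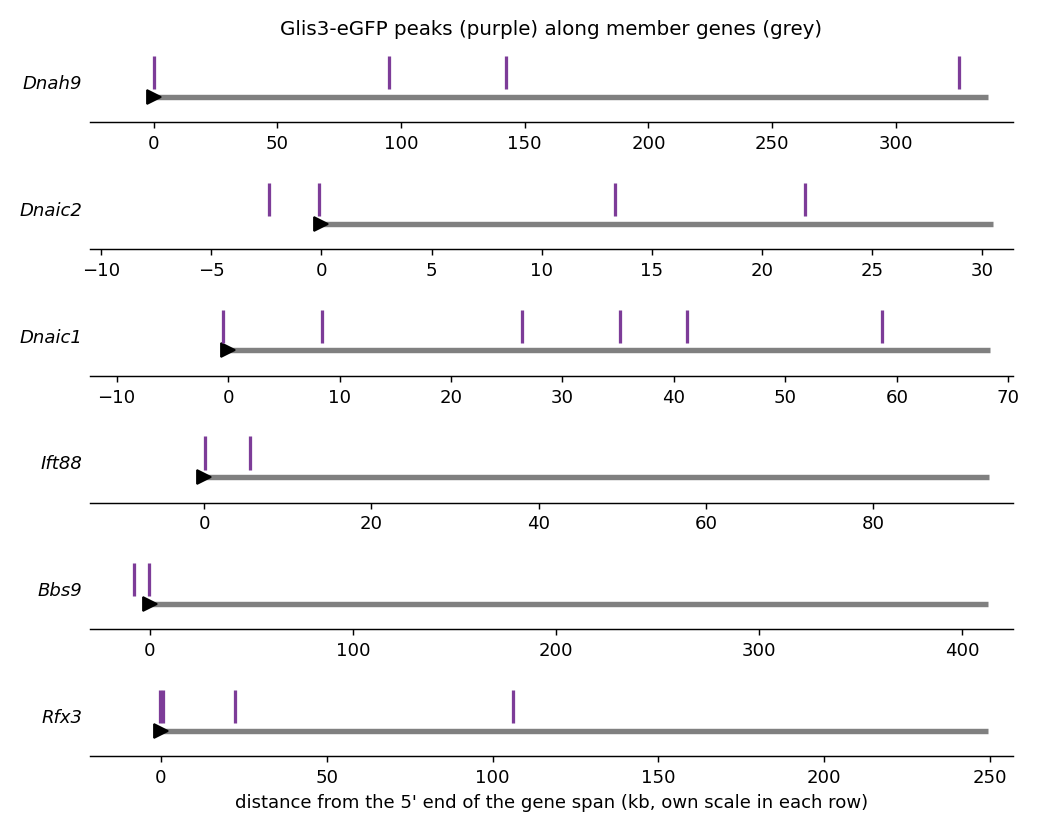
Glis3-eGFP peak midpoints (purple) along 6 members (grey bar, gene span; arrowhead, 5′ end), with distance from the 5′ end in kb on a separate scale for each row. Each of the 6 genes has a peak within 1 kb of its 5′ end, as 71.2% of all tested genes do, and Dnah9 has 3 more inside the gene. Dnah1 and Bbs1, which passed the test and had no peak within 10 kb, are not drawn.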

How the data were processed

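RNA was sequenced from 7 islet libraries (3 labelled KO, 4 WT), and Glis3-eGFP binding was mapped in 1 library. The input library was not used here. Expression values are raw counts per gene as deposited, with mm10 coordinates per the file headers. Per the submitters' processing notes, the tools included featureCounts 1.5.0-p1, STAR 2.5 and DESeq2, while neither the strand setting nor the annotation is given in the sources used here. The other deposited values are starts and ends of 200 bp peaks without a score. The same notes name HOMER 4.9.1, bedtools 2.24.0, Bowtie 1.2, cutadapt 1.2.1 and Picard 1.110, without roles.

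From the deposited counts, genes were kept with filterByExpr, scaled with TMM and tested by the robust quasi-likelihood method of edgeR 4.0.16 (R 4.3.3). P-values were adjusted by Benjamini-Hochberg over 14529 genes. SEs were taken from the log2 fold change and its F statistic. The values of 2 members are not reported here. Repeated symbols (988) stayed separate genes. On simulated data the fit recovered 18.0% of genes raised 1.5-fold, 76.0% of those raised 2-fold and 94.0% of those raised 4-fold. It recovered 85.7% of those lowered to 0.25-fold. Of its 146 calls there, 6.85% were false. The changed genes were few (50 at each rise and 49 lowered), all drawn from genes with a mean above 1 CPM. In the data 2031 genes were called, so these shares need not hold there, nor for genes with few counts. Libraries of a group were not copies (chi-square per degree of freedom from 23.4 to 95.4). Deviations of same-numbered libraries correlated at 0.117 to 0.173 in all 3 pairs (−0.183 to 0.157 in the other pairs). These ranges overlap, so they do not settle whether the replicate numbers pair the libraries. The main test used the group alone and no pairing. Blocked values, in which WT 4 has no same-numbered partner, are given as an alternative where they change a call.

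Peak midpoints were measured from the 5′ end of each gene span. The members, the 6 pathway lists, the 10 cell type lists and the rule for named genes (members past the threshold, 11 set genes, up to 8 members with a peak within 1 kb, and up to 4 called genes per pathway list) were chosen with earlier results of these data known. Ift20, Bbip1, Zmynd10, Cfap126, Tppp3, Dynlrb2, the radial spoke genes and the markers named singly were named after their values were seen. The alternatives tried were DESeq2 1.42.0, limma-voom (limma 3.58.1), scaling with RLE factors or by library size alone, a filter of 1 CPM in 3 libraries, no filter at all, the replicate block, the 10 most abundant genes left out, no robust shrinkage, and each library left out.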

Additional observations from a re-analysis of the deposited data

Results flagged for a closer look

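In 2 of 52 members with at least 10 WT counts, 1 WT library lay far from the other 3 for its gap over the group's range, and chance gives about 1 in 20. Cep290 stood at 4.02 CPM in WT 4, against 7 to 7.08 CPM in the other WT libraries. Ift140 stood at 13.4 CPM in WT 2, against 11.1 to 11.4 CPM in the other WT libraries. Neither gene passed the test between labelled KO and WT.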

How the results depend on the processing

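Dnah9, Dnaic2, Anks6, Ahi1 and Tmem212 kept their direction and call in every alternative run. Scaling by library size alone lowered the count of falling genes from 763 to 324 (1854 rose, against 1268; 85.1% of calls higher, against 62.4%), left 0 members lower (3 at an unadjusted p under 0.05; edgeR with TMM, DESeq2 and limma-voom each called 3) and left 1 further cilium gene lower, against 4. DESeq2 made 8 further cilium genes higher, against 5. Leaving out 1 library gave 541 to 825 genes lower and 934 to 1142 higher, 1 to 3 members lower and 2 to 3 higher, and 1 to 5 further cilium genes lower and 2 to 5 higher. The replicate block ended the calls of Dnaic1, Dnah1 and Rab23, made that of Ift20 (edgeR adjusted p = 0.0401), and changed no other call among the members or further cilium genes. Values near 0 changed sign without passing: with library size alone Kif3a was 0.06, Bbs4 0.04 and Pkd2 0.10. With 1 library left out, Bbs4 ran from −0.25 to 0.07 (above 0 without labelled KO 1), Pkd2 from −0.19 to 0.08 (above 0 without labelled KO 2) and Foxj1 from −0.27 to 0.50 (−0.08 without WT 1, −0.27 without WT 3, −0.03 without labelled KO 1 and −0.14 without labelled KO 3). Rfx3 was −0.0044 with no filter, −0.003 with limma-voom, −7.8e-05 without the 10 most abundant genes, −0.01 without WT 2 or labelled KO 3, −0.02 without WT 3 and −0.06 without labelled KO 1. The causes were not tested. The windows of 1 and 50 kb gave 37 and 43 members with a peak, against 40. With 3 and 4 libraries, a member that did not pass is not shown to be equal in both groups, and genes with few counts carry wide errors (SE 0.95 for Dnah10 and Dnah17, 0.84 for Foxj1 and 0.77 for Dnah1).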
